A study of Mus musculus with 16 samples.

Results

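The matrix proteoglycans described here are 8 secreted proteins, whose genes are 8 of the 27670 gene names on the array, and their transcripts were read by 15 of the 41174 non-control probes of a two-colour oligonucleotide array. The probes were chosen by the gene name in the array files: Lum, Dcn, Bgn, Fmod, Ogn, Aspn, Prelp and Vcan, the last of which the array lists as Cspg2. The samples were heart ventricles of 129Sv mice taken 1 week after surgery, in 4 groups of 4 biological replicates: CHIP-/- mice after trans-aortic banding (TAB), CHIP-/- mice after a sham operation, wild-type mice after TAB and wild-type mice after a sham operation. TAB narrows the aorta, so that the left ventricle pumps against a raised pressure, and CHIP, the product of Stub1, is a ubiquitin ligase that works with heat shock chaperones. The labels give CHIP-/- as the genotype and do not describe the allele, and they give neither the age nor the sex of the animals. Heart RNA was labelled with Cy5 and compared on each array with Cy3-labelled RNA of whole neonatal mice of a mixed 129Sv and C57BL/6 background. Values are given as log2 of heart signal over reference signal. A level therefore holds the reference's own expression and the dye bias of the probe, and levels of different probes are not set against each other.

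Small leucine-rich proteoglycans are short protein cores folded from leucine-rich repeats, most of which carry chondroitin, dermatan or keratan sulfate chains or are made as plain glycoproteins. They sit on collagen fibrils, where they control fibril diameter and spacing, and they bind growth factors such as TGF-beta. In the heart they are made mainly by fibroblasts and other stromal cells. Decorin, biglycan and asporin form class I, lumican, fibromodulin and PRELP class II, and osteoglycin class III. Versican, the product of Vcan, belongs to another family, the large hyaluronan-binding proteoglycans that fill the loose matrix of developing and injured tissue.

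The genes of the small leucine-rich family lie in clusters. In RefSeq, Lum and Dcn are neighbours on chromosome 10, Fmod and Prelp are neighbours on chromosome 1, and Aspn and Ogn lie on chromosome 13 with only Omd, the osteomodulin gene, between them. Bgn lies on chromosome X, and Vcan on chromosome 13 beside the link protein gene Hapln1. RefSeq promoters (build GRCm38.p6), which run from 250 bases before to 50 bases after the annotated start, were at hand for 6 of the 8 genes: Bgn, Fmod, Ogn, Aspn, Prelp and Vcan. The promoters of Aspn and Ogn are shown because these near neighbours had log2 differences of unlike size after banding, that of Bgn because its response differed between the genotypes, and that of Prelp because no change passed the test. They lie at chr13:49544193-49544492 (plus strand) for Aspn, chr13:49607765-49608064 (plus strand) for Ogn, chrX:73483351-73483650 (plus strand) for Bgn and chr1:133921352-133921651 (minus strand) for Prelp. Each is written 5' to 3' along its gene, and capitals mark matches to any of the 5 motifs searched on both strands.
Aspn: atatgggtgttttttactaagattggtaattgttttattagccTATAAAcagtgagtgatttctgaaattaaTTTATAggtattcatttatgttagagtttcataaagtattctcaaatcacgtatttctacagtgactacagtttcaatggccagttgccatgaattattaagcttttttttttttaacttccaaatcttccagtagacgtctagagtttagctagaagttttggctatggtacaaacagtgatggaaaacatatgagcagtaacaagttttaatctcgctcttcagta
Ogn: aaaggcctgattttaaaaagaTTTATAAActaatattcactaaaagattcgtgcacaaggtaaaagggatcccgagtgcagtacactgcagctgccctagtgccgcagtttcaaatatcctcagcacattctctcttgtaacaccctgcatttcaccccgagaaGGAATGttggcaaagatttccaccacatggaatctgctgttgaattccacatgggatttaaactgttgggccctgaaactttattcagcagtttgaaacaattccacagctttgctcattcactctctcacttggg
Bgn: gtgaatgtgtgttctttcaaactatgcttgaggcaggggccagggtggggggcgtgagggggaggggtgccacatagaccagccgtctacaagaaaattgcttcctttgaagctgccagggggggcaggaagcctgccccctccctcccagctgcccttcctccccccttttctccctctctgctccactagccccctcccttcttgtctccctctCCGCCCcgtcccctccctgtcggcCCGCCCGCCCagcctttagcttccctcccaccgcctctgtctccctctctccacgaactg
Prelp: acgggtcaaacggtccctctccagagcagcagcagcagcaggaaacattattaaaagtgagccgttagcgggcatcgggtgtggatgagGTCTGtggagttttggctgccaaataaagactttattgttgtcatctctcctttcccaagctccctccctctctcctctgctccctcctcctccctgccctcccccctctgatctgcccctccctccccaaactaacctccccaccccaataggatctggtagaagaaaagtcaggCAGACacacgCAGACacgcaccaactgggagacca
The motifs were the TATA box TATAAA, found in 13.6% of all 32851 RefSeq promoters of this length, the AP-1 site TGANTCA, which reads the same on both strands and was found in 7.81%, the Smad element CAGAC (49.6%), the TEAD element GGAATG (14.7%) and the GC box CCGCCC (35.7%). Counted from the annotated start, TATAAA began at -207 and -178 in the Aspn promoter and at -229 and -227 in the Ogn promoter, where a match on each strand overlaps the other. Ogn also held 1 match to GGAATG. Bgn held 3 matches to CCGCCC, of which the 2 nearest the start overlap, and Vcan held 2. Prelp held 3 matches to CAGAC and Fmod 2. None of the 6 held TGANTCA. The share of G and C bases was 31% in Aspn, 42.3% in Ogn, 51% in Fmod, 55.3% in Prelp, 61% in Vcan and 63.7% in Bgn, against a median of 52.7% over all promoters. Such matches describe letters and are no evidence of binding.

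Stub1 served as a check of the genotype labels. Its log2 ratio lay between -1.47 and -1.17 in CHIP-/- TAB and between -1.39 and -1.24 in CHIP-/- sham, against -0.41 to 0.25 in wild-type TAB and 0.30 to 0.43 in wild-type sham, so the genotypes did not overlap. Between 27.0% and 37.7% of the heart signals on an array, and between 56.6% and 62.4% of the reference signals, passed Feature Extraction's test of being well above background, with the lowest heart share on wild-type TAB replicate 1. Precision is limited by having 4 arrays in a group. Every group had a slide to itself, 4 slides in all, and an effect of the slide cannot be told apart from one of the group. Ddx3y and Eif2s3y, which lie on the Y chromosome, gave signals well above background in CHIP-/- sham replicates 2 and 4 and in wild-type sham replicate 4, and on none of the TAB arrays. The female marker Xist was at -3.27, -3.26 and -3.20 on these 3 arrays in that order, against -0.41 to 0.16 on the other 13. By these transcripts the 3 sham hearts read as male and all others as female. An effect of sex therefore cannot be fully told apart from one of surgery. Myl7, an atrial myosin light chain transcript, was high on 3 different sham arrays, at 2.20 in CHIP-/- sham replicate 1 and at 3.82 and 1.89 in wild-type sham replicates 1 and 3, against -1.99 to 0.17 on the other 13 arrays. The defining cardiomyocyte markers were present in every group, with a list mean over 8 measured markers of 3.05 to 3.20 in CHIP-/- TAB, 3.26 to 3.67 in CHIP-/- sham, 3.24 to 3.49 in wild-type TAB and 3.63 to 3.79 in wild-type sham.

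Of the 15 probes, 8 passed the filter, 1 for each gene. The filter asked for a heart signal well above background on at least 4 of the 16 arrays and a value on at least 15. The other 7 were second probes for Bgn, Dcn and Prelp and 4 further probes for Vcan. They were well above background in the heart on none of the 16 arrays, with mean signals of 37.4 to 57.5, so each gene is described by 1 probe and no second probe could check it. Among the passing probes, those for Aspn, Bgn, Dcn, Lum, Ogn and Prelp were well above background on all 16 arrays. The Fmod probe was so on 10 arrays and the Vcan probe on 7. No member spot was saturated.

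**Figure D1:**
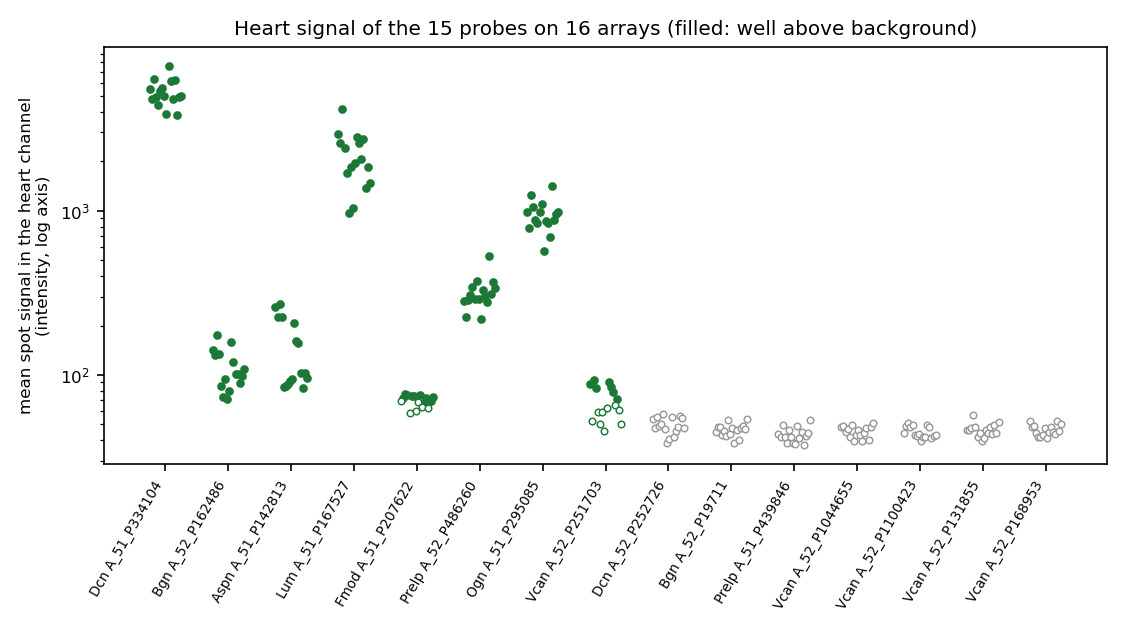
Mean spot signal in the heart channel (log axis, intensity units) of the 15 probes on the 16 arrays; each point is 1 array, filled where the signal was well above background and open where it was not, green for the 8 probes that passed the filter and grey for the 7 that did not. The grey probes lie between 37.4 and 57.5 on every array, while the signals of the passing probes reach 7611 for Dcn.

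Most of these transcripts were higher after TAB than after sham in both genotypes. The 8 genes were chosen with earlier results of these data known, and no test compares their counts with the shares over all probes. In CHIP-/- hearts 7 of the 8 rose after TAB relative to sham (limma, adjusted p below 0.05 over all 14684 probes tested), where 21.3% of all probes tested rose and 22.7% fell. In wild-type hearts 6 of the 8 rose, where 16.3% of all probes rose and 17.1% fell. None of the 8 fell in either genotype with loess. With each array only centred on its median, 3 rose and 2 fell in wild-type hearts. That centring called 38.7% of all probes in wild-type hearts, and only 7.88% of those calls were upward. The median log2 difference of the 8 was 0.69 in CHIP-/- hearts and 0.46 in wild-type hearts, against medians of -0.02 and -0.01 over all probes tested, and 0.66 in CHIP-/- hearts with Vcan, not well above background after sham, at its lower bound. The 4 arrays after TAB did not overlap the 4 after sham for 7 of the 8 in CHIP-/- hearts, where 39.7% of all probes did not overlap, and for 4 of the 8 in wild-type hearts, where 30% did not. Vcan is in each of these counts, and it passed the filter through its TAB arrays. It was well above background on 3 TAB arrays of each genotype, but on 0 CHIP-/- sham arrays and 1 wild-type sham array. Its part in the counts therefore follows partly from the filter. In bulk ventricle, more RNA per cell and more cells of a type cannot be told apart.

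**Figure D2:**
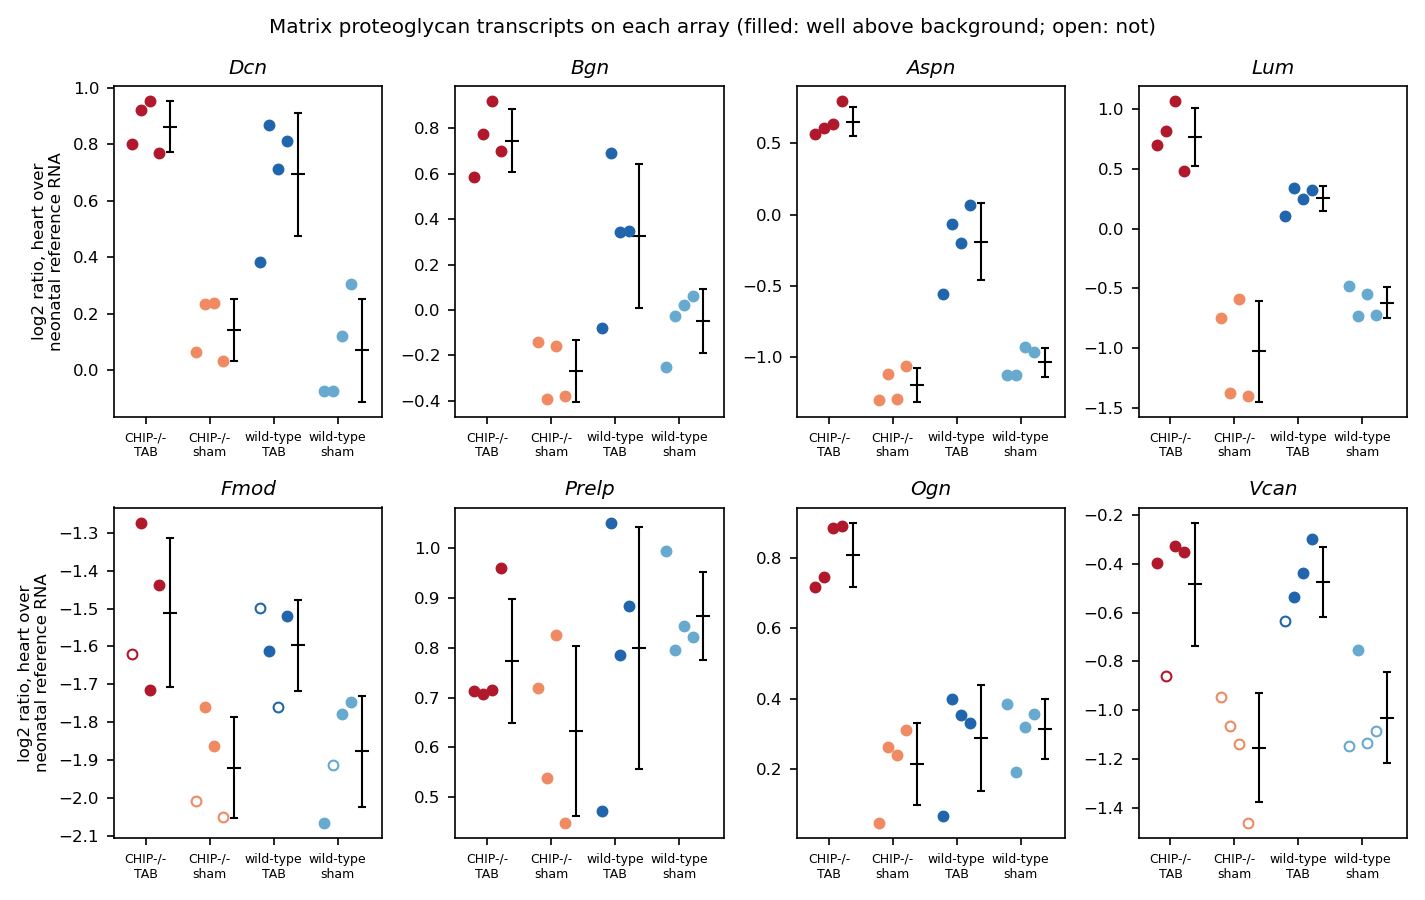
Log2 ratio of heart over neonatal reference RNA (vertical axis) for the 8 transcripts, 1 panel each, in the 4 groups; points are single arrays, filled where the heart signal was well above background, and black bars give the mean and SD of 4 arrays. For Aspn and Lum the CHIP-/- TAB points lie highest, the wild-type TAB points below them and both sham groups lowest, while the Prelp groups overlap.

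Asporin, encoded by Aspn, binds collagen and TGF-beta and carries a run of aspartate residues in place of a glycosaminoglycan chain. The Aspn probe A_51_P142813 gave 0.57, 0.61, 0.63 and 0.80 in CHIP-/- TAB hearts, against -1.30, -1.12, -1.29 and -1.06 in CHIP-/- sham hearts. It gave -0.56, -0.06, -0.20 and 0.07 in wild-type TAB hearts, against -1.12, -1.12, -0.93 and -0.97 in wild-type sham hearts. All 4 CHIP-/- TAB arrays lay above all other arrays, and the wild-type TAB arrays lay above both sham groups, which overlapped. The difference after TAB was 1.84 (SE 0.10, adjusted p = 9.2e-12) in CHIP-/- hearts, a 3.59-fold rise, and 0.85 (SE 0.10, adjusted p = 1.1e-06) in wild-type hearts, a 1.80-fold rise. The response was larger in CHIP-/- hearts by 1.00 (95% confidence interval 0.70 to 1.30, adjusted p = 0.00059). These calls held under all 31 other settings tried, where the smallest values were 1.48 and 0.58 and the largest 2.62 and 1.35. Not all of these settings could move the differences.

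Lumican, encoded by Lum, is a keratan sulfate proteoglycan that spaces collagen fibrils in cornea and other connective tissue. The Lum probe A_51_P167527 gave 0.70, 0.82, 1.07 and 0.48 in CHIP-/- TAB hearts, against -0.75, -1.37, -0.59 and -1.40 in CHIP-/- sham hearts. It gave 0.11, 0.34, 0.25 and 0.32 in wild-type TAB hearts, against -0.48, -0.73, -0.55 and -0.72 in wild-type sham hearts. Every TAB array lay above every sham array, and CHIP-/- TAB did not overlap wild-type TAB. Lum rose by 1.79 (SE 0.14, adjusted p = 5.2e-10), or 3.47-fold, in CHIP-/- hearts and by 0.88 (SE 0.14, adjusted p = 3.4e-05), or 1.84-fold, in wild-type hearts. The responses differed by 0.92 (0.51 to 1.33, adjusted p = 0.009). The lowest Lum values, those of CHIP-/- sham replicates 2 and 4, came from the arrays with Y-linked transcripts; the third such array, wild-type sham replicate 4, lay within its group. Without these 3 arrays Lum rose by 1.43 in CHIP-/- hearts (adjusted p = 2.4e-08), and the difference between the responses was 0.59, with an adjusted p of 0.083.

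Decorin and biglycan, encoded by Dcn and Bgn, belong to class I with asporin. Both carry chondroitin or dermatan sulfate chains and bind collagen and TGF-beta. The Dcn probe A_51_P334104 gave 0.80, 0.92, 0.95 and 0.77 in CHIP-/- TAB hearts, against 0.06, 0.23, 0.24 and 0.03 in CHIP-/- sham hearts. It gave 0.38, 0.87, 0.71 and 0.81 in wild-type TAB hearts, against -0.07, -0.07, 0.12 and 0.31 in wild-type sham hearts. The TAB and sham arrays did not overlap in either genotype, and wild-type TAB replicate 1 was the lowest of the TAB arrays. Dcn rose by 0.72 (SE 0.09, adjusted p = 1.1e-06) in CHIP-/- hearts and by 0.62 (SE 0.09, adjusted p = 1.7e-05) in wild-type hearts. The difference between the responses was 0.10 (-0.18 to 0.37, adjusted p = 0.79), so a difference above 0.37 lies outside the interval. Both Dcn calls were lost with each array only centred on its median (0.12, adjusted p = 0.49, and 0.14, adjusted p = 0.46), and kept with Feature Extraction's own ratios (0.70, adjusted p = 3.9e-05, and 0.59, adjusted p = 0.00043).

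The Bgn probe A_52_P162486 gave 0.59, 0.78, 0.92 and 0.70 in CHIP-/- TAB hearts, against -0.14, -0.39, -0.16 and -0.38 in CHIP-/- sham hearts. It gave -0.08, 0.69, 0.34 and 0.35 in wild-type TAB hearts, against -0.25, -0.03, 0.02 and 0.06 in wild-type sham hearts. The CHIP-/- groups were well apart, while wild-type TAB replicate 1 lay within the wild-type sham range. Bgn rose by 1.01 (SE 0.12, adjusted p = 3.3e-07), or 2.02-fold, in CHIP-/- hearts and by 0.37 (SE 0.12, adjusted p = 0.02) in wild-type hearts. The responses differed by 0.64 (0.29 to 0.99, adjusted p = 0.032). The heart signals of this probe were low, 71.1 to 175, and the sizes varied with the processing. Over 31 other settings the rise in CHIP-/- hearts kept its call at 0.71 to 1.82, and the interaction ranged from 0.49 to 1.27. The interaction call is near the threshold and was lost in 13 of 31 other settings: it was 0.54 (adjusted p = 0.063) with median centring, leaving out any 1 of 8 arrays (CHIP-/- TAB replicate 3, CHIP-/- sham replicates 2 and 4, wild-type TAB replicates 1 and 3 and wild-type sham replicates 2, 3 and 4) gave adjusted p values of 0.054 to 0.086, and without the 3 arrays with Y-linked transcripts the difference was 0.49 with an adjusted p of 0.33. The wild-type rise lost its call in 6 of 31 settings: with median centring (0.18, adjusted p = 0.20), with Feature Extraction's ratios (0.55, adjusted p = 0.075) and the authors' deposited table (0.55, adjusted p = 0.072), without wild-type TAB replicate 2 (0.25, adjusted p = 0.10), without wild-type sham replicate 1 (0.31, adjusted p = 0.077) and without the 3 sham arrays with high Myl7 (0.31, adjusted p = 0.16).

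Osteoglycin, also called mimecan and encoded by Ogn, is the class III member and has been linked to left ventricular mass in rats and humans. The Ogn probe A_51_P295085 gave 0.72, 0.75, 0.88 and 0.89 in CHIP-/- TAB hearts, against 0.05, 0.26, 0.24 and 0.31 in CHIP-/- sham hearts. It gave 0.07, 0.40, 0.35 and 0.33 in wild-type TAB hearts, against 0.39, 0.19, 0.32 and 0.36 in wild-type sham hearts. The 4 CHIP-/- TAB arrays lay above all 12 others, which overlapped across their 3 groups. Ogn rose by 0.59 (SE 0.07, adjusted p = 6.2e-07), or 1.51-fold, in CHIP-/- hearts, and in wild-type hearts the difference was -0.03 (-0.18 to 0.13, adjusted p = 0.82). The responses differed by 0.62 (0.40 to 0.84, adjusted p = 0.0016). With median centring the rise in CHIP-/- hearts was 0.17 (adjusted p = 0.34), the wild-type difference was -0.39 (adjusted p = 0.029), and the difference between the responses was 0.56 (adjusted p = 0.24).

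Aspn and Ogn, near neighbours on chromosome 13, had log2 differences of unlike size after TAB. Within each array, Aspn minus Ogn lay between -0.25 and -0.09 in CHIP-/- TAB hearts and between -1.53 and -1.34 in CHIP-/- sham hearts. It lay between -0.63 and -0.27 in wild-type TAB hearts and between -1.51 and -1.25 in wild-type sham hearts. The groups did not overlap in either response, with differences of 1.25 and 0.87. Each gave p = 0.0286 in an exact two-sided permutation test, the smallest p that 4 arrays against 4 allow, and 0.0858 after Benjamini-Hochberg adjustment over 12 such tests, of which none passed 0.05 after adjustment. Lum minus Dcn, the neighbours on chromosome 10, had a difference of 1.08 in CHIP-/- hearts (exact permutation p = 0.0286, adjusted 0.0858) and 0.25 in wild-type hearts (exact permutation p = 0.114, adjusted 0.191). Fmod minus Prelp had differences of 0.27 and 0.34 (exact permutation p = 0.143 and 0.114, adjusted 0.191 for each).

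Fibromodulin, encoded by Fmod, is a keratan sulfate proteoglycan that guides collagen crosslinking. The Fmod probe A_51_P207622 was dim: it was well above background on 3 of 4 CHIP-/- TAB arrays, 2 of 4 CHIP-/- sham arrays, 2 of 4 wild-type TAB arrays and 3 of 4 wild-type sham arrays. It gave -1.62, -1.27, -1.71 and -1.44 in CHIP-/- TAB hearts, against -2.01, -1.76, -1.86 and -2.05 in CHIP-/- sham hearts. It gave -1.50, -1.61, -1.76 and -1.52 in wild-type TAB hearts, against -2.07, -1.91, -1.78 and -1.75 in wild-type sham hearts. The CHIP-/- groups did not overlap, and the wild-type groups did. Fmod rose by 0.41 (SE 0.10, adjusted p = 0.0016) in CHIP-/- hearts and by 0.28 (SE 0.10, adjusted p = 0.031) in wild-type hearts, and the difference between the responses was 0.13 (-0.16 to 0.42, adjusted p = 0.71). Neither rise kept its call when the heart channel was used alone (0.14, adjusted p = 0.15, and 0.060, adjusted p = 0.59) or with median centring (0.15, adjusted p = 0.25, and 0.069, adjusted p = 0.63). The wild-type call was lost in 12 of 30 settings, among them a smaller background offset (0.33, adjusted p = 0.082), Feature Extraction's ratios (0.55, adjusted p = 0.10) and the sham arrays with high Myl7 left out (0.23, adjusted p = 0.19), and when any 1 of wild-type TAB replicates 1, 2 and 4 and wild-type sham replicates 1 and 2 was left out, at adjusted p values of 0.051 to 0.12.

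PRELP, encoded by Prelp, is a class II member with a basic, arginine-rich end that binds heparin and heparan sulfate. The Prelp probe A_52_P486260 gave 0.71, 0.71, 0.71 and 0.96 in CHIP-/- TAB hearts, against 0.72, 0.54, 0.83 and 0.45 in CHIP-/- sham hearts. It gave 0.47, 1.05, 0.79 and 0.88 in wild-type TAB hearts, against 0.99, 0.80, 0.84 and 0.82 in wild-type sham hearts. All 4 groups overlapped. The difference was 0.14 (-0.07 to 0.35, adjusted p = 0.27) in CHIP-/- hearts and -0.07 (-0.27 to 0.14, adjusted p = 0.66) in wild-type hearts, so a rise above 0.35 or 0.14 lies outside the interval of its comparison. The difference between the responses was 0.21 (-0.09 to 0.50, adjusted p = 0.52). With median centring the wild-type difference was -0.33 (adjusted p = 0.04), a call downward that lies outside the interval above.

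Versican was at the edge of detection. The Vcan probe A_52_P251703 was well above background on 3 of 4 CHIP-/- TAB arrays, no CHIP-/- sham array, 3 of 4 wild-type TAB arrays and 1 of 4 wild-type sham arrays. It gave -0.40, -0.86, -0.33 and -0.35 in CHIP-/- TAB hearts, against -0.94, -1.07, -1.14 and -1.46 in CHIP-/- sham hearts. It gave -0.63, -0.53, -0.44 and -0.30 in wild-type TAB hearts, against -1.15, -0.75, -1.13 and -1.08 in wild-type sham hearts. The TAB arrays lay above the sham arrays in both genotypes, and the TAB groups overlapped each other. In CHIP-/- hearts Vcan was at least 1.45-fold higher after TAB, counting each sham array at no less than its lowest signal well above background. This bound was not tested, and its TAB mean includes replicate 2, which was not well above background. The limma adjusted p of 0.00011 belongs to the fitted difference, which takes the dim sham signals as measured. In wild-type hearts it rose by 0.55 (SE 0.12, adjusted p = 0.0013), and the fitted interaction, which takes the dim sham signals as measured, was 0.11 (-0.25 to 0.48, adjusted p = 0.81). The size of the change depends on how the dim signals are treated: Feature Extraction's own ratios gave 1.64 in wild-type hearts.

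**Figure D3:**
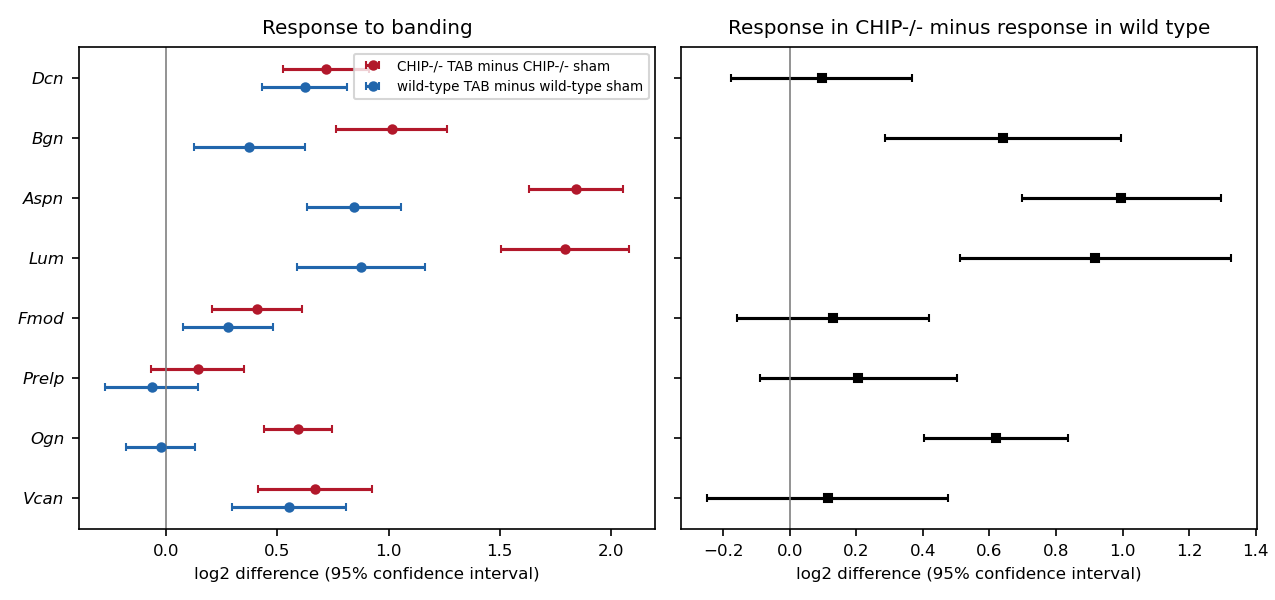
Left, log2 difference between TAB and sham with its 95% confidence interval for CHIP-/- hearts (red) and wild-type hearts (blue); right, the response in CHIP-/- hearts minus that in wild-type hearts. The intervals on the right lie above 0 for Bgn, Aspn, Lum and Ogn and span 0 for Dcn, Fmod, Prelp and Vcan. The Vcan values of CHIP-/- hearts are fitted against sham signals not well above background.

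Both genotypes were then compared after the same surgery. After TAB, 4 of the 8 were higher in CHIP-/- hearts than in wild-type hearts and none was lower, where 4.43% of all probes tested were higher and 5.48% lower. They were Aspn, higher by 0.84 (SE 0.10, adjusted p = 1.2e-05), Ogn by 0.52 (SE 0.07, adjusted p = 7.7e-05), Lum by 0.51 (SE 0.14, adjusted p = 0.019) and Bgn by 0.42 (SE 0.12, adjusted p = 0.028). For 3 of them, Aspn, Ogn and Lum, the groups did not overlap, where 11.9% of all probes did not. The intervals of the other 4 were -0.02 to 0.36 for Dcn, -0.12 to 0.29 for Fmod, -0.23 to 0.18 for Prelp and -0.26 to 0.25 for Vcan. Without wild-type TAB replicate 1, the array with the fewest spots above background, the difference was 0.28 for Bgn (adjusted p = 0.13) and 0.46 for Lum (adjusted p = 0.066); without CHIP-/- TAB replicate 3 these were 0.36 (adjusted p = 0.11) and 0.41 (adjusted p = 0.095). Bgn also lost its call without CHIP-/- TAB replicate 2 (0.41, adjusted p = 0.051) and without wild-type TAB replicate 3 (0.43, adjusted p = 0.054). Over all 31 other settings the Lum call was lost in 5 and the Bgn call in 7. With median centring Lum was at 0.48 (limma adjusted p = 0.087). Only Aspn and Ogn kept their calls with Feature Extraction's ratios and with the authors' deposited table.

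After sham surgery none of the 8 differed between CHIP-/- and wild-type hearts in limma, where 0.0341% of all probes were called in either direction and 5.09% did not overlap; all 8 overlapped. At an unadjusted p under 0.05 there were 2, Lum, at -0.41 (-0.69 to -0.12, unadjusted p = 0.00761), and Prelp, at -0.23 (-0.44 to -0.02, unadjusted p = 0.0313), with adjusted p values of 0.38 and 0.58. Both were low in CHIP-/- sham replicates 2 and 4. Without the 3 arrays with Y-linked transcripts the Lum difference was -0.08. The interaction, which is the response in CHIP-/- hearts minus that in wild-type hearts, was called for 4 of the 8, all upward, where 2.32% of all probes were called upward and 2.05% downward. The median of the 8 was 0.41, against 0.0001 over all probes. The interaction and the separate responses share their arrays and are not independent evidence of each other.

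**Figure D4:**
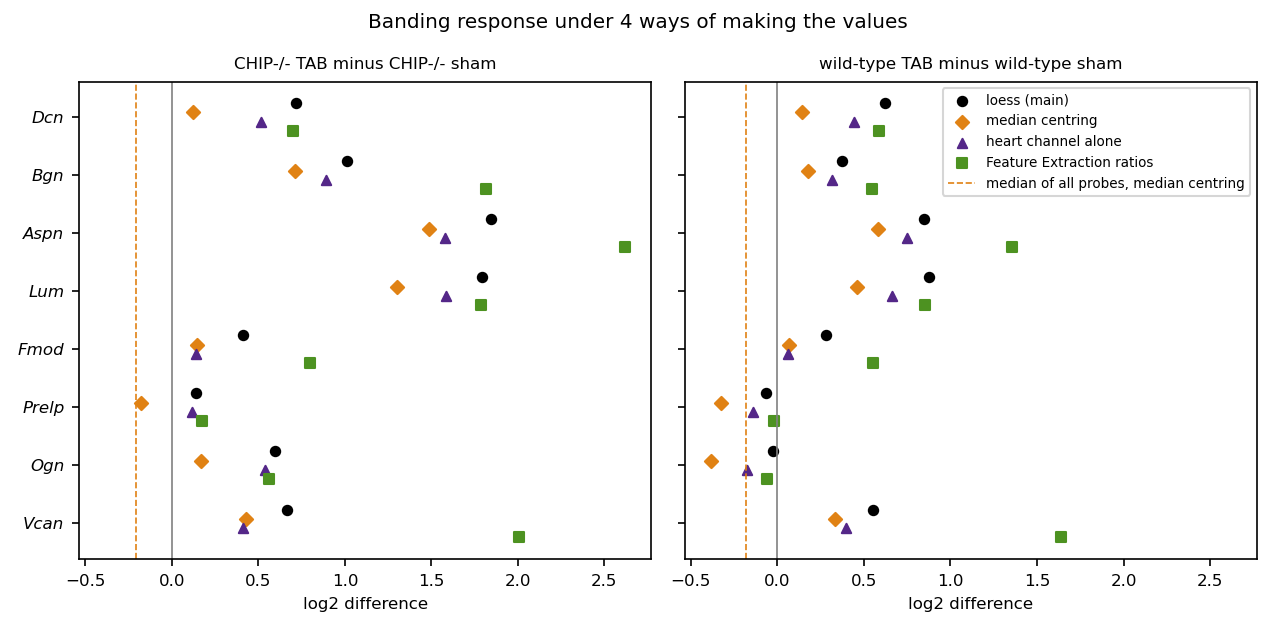
Log2 difference between TAB and sham for each transcript in CHIP-/- hearts (left) and wild-type hearts (right) with values made in 4 ways, given by the symbols; the dashed line is the median of all probes after median centring. Aspn and Lum lie to the right of 0 in all 4 ways, while the median-centred values of Dcn, Fmod and Ogn come close to 0 or below it.

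Each array's normalization mattered for the modest changes. With each array centred on its median in place of loess, the median of all probes tested shifted to -0.21 in the CHIP-/- response and -0.18 in the wild-type response. Relative to that shift, the CHIP-/- differences were 1.69 for Aspn, 1.51 for Lum, 0.92 for Bgn, 0.38 for Ogn, 0.35 for Fmod, 0.33 for Dcn and 0.03 for Prelp. The wild-type differences relative to it were 0.77 for Aspn, 0.64 for Lum, 0.52 for Vcan, 0.36 for Bgn, 0.32 for Dcn, 0.25 for Fmod, -0.14 for Prelp and -0.20 for Ogn.

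Genes that make, bind, carry or cut proteoglycans were counted from lists drawn up for this tissue, with the brightest probe standing for each gene. The lists were chosen with earlier results of these data known, and no test compares their counts with the shares over all genes. Of all 11058 genes, 23.7% rose and 23.1% fell after TAB in CHIP-/- hearts, 18.5% rose and 16.9% fell in wild-type hearts, and 2.62% were called upward and 2.4% downward in the interaction. The medians over all genes were -0.0061 in CHIP-/- hearts and 0.00066 in wild-type hearts. Of the collagens of the fibrils that these proteoglycans coat, 10 of 10 measured members rose in CHIP-/- hearts (median 1.44) and 8 of 10 in wild-type hearts (median 0.48), and 6 of 10 had a larger response in CHIP-/- hearts. Col3a1, the main chain of type III collagen, rose by 3.29 (SE 0.22, adjusted p = 7.8e-11) in CHIP-/- hearts and by 1.22 (SE 0.22, adjusted p = 0.00015) in wild-type hearts. Col1a1, of type I collagen, rose by 1.95 (adjusted p = 2.7e-10) and 0.70 (adjusted p = 0.00053), and Col1a2, its partner chain, by 1.39 (adjusted p = 2e-09) and 0.33 (adjusted p = 0.018).

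Other secreted and cell surface proteoglycans rose in 11 of 14 measured cases in CHIP-/- hearts (median 0.53) and 7 of 14 in wild-type hearts (median 0.33), and none had a different response between the genotypes. Col18a1, the heparan sulfate carrying collagen of vessel walls, rose by 0.90 (adjusted p = 1.1e-09) in CHIP-/- hearts and 0.73 (adjusted p = 1.1e-07) in wild-type hearts. Srgn, the proteoglycan of blood cell granules, rose by 0.67 (adjusted p = 1.3e-08) and 0.77 (adjusted p = 9.9e-09). Of the glypicans, which are tied to the membrane by a lipid, Gpc3 rose by 0.76 (adjusted p = 2.7e-07) and 0.38 (adjusted p = 0.002); Gpc4 rose by 0.29 (adjusted p = 0.01) in CHIP-/- hearts and had -0.06 (adjusted p = 0.62) in wild-type hearts. Among 10 further members of the small leucine-rich family only Ecm2 passed the filter, with -0.03 (adjusted p = 0.86) in CHIP-/- hearts and -0.15 (adjusted p = 0.41) in wild-type hearts. Omd, Kera and the other members were on the array but not well above background on enough arrays.

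Enzymes that build the glycosaminoglycan chains rose in 11 of 16 cases in CHIP-/- hearts (median 0.27) and 9 of 16 in wild-type hearts (median 0.22). Dsel, an epimerase that turns chondroitin into dermatan sulfate, rose by 0.97 (adjusted p = 4.7e-10) and 0.55 (adjusted p = 4.6e-06), and was the 1 enzyme with a larger response in CHIP-/- hearts (0.42, adjusted p = 0.024). Chsy1, which lengthens chondroitin chains, rose by 0.67 (adjusted p = 2.3e-07) and 0.34 (adjusted p = 0.0016). Of 16 genes listed for hyaluronan, to which versican binds, 5 were measured: Hyal1, Hyal2, Tnfaip6, Lyve1 and Ugdh. The synthase genes Has1, Has2 and Has3 and the link protein genes Hapln1 to Hapln4 were not well above background on enough arrays. Of the 5 measured, 3 rose in CHIP-/- hearts, and 4 rose and 1 fell in wild-type hearts. Ugdh, which makes the sugar nucleotide for hyaluronan and chondroitin, rose by 0.89 (adjusted p = 7.4e-09) and 0.55 (adjusted p = 1.6e-05), and Hyal2, a hyaluronidase, by 0.50 (adjusted p = 1.5e-05) and 0.65 (adjusted p = 1.1e-06). Lyve1, a hyaluronan receptor of lymphatic vessels and some macrophages, had 0.03 (adjusted p = 0.86) in CHIP-/- hearts and rose by 0.41 (adjusted p = 0.0077) in wild-type hearts. Its interaction of -0.38 did not pass the test (limma adjusted p = 0.22), and no gene of this list had an interaction call.

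Of 10 measured genes listed for cleaving proteoglycans, 10 rose in CHIP-/- hearts (median 0.47) and 7 in wild-type hearts (median 0.45), and 2 had a larger response in CHIP-/- hearts. Those 2 were Mmp14, a membrane-bound metalloproteinase, which rose by 1.49 (adjusted p = 1.6e-07) and 0.58 (adjusted p = 0.011), and Pcolce, which rose by 1.12 (adjusted p = 7.7e-09) and 0.53 (adjusted p = 0.00037). Pcolce is itself no protease but enhances the proteinase that trims procollagen. Of 15 receptors and ligands bound by these proteoglycans, 9 rose in CHIP-/- hearts and 8 in wild-type hearts, where 1 fell. The responses of 4 were larger in CHIP-/- hearts and that of 1 was smaller. Itgb1, a collagen receptor subunit, rose by 1.32 (adjusted p = 1.6e-10) and 0.57 (adjusted p = 5.2e-05), Tgfb3, a ligand bound by decorin and biglycan, by 1.30 (adjusted p = 2.9e-09) and 0.48 (adjusted p = 0.0019), and Ccn4, a matricellular protein, by 1.24 (adjusted p = 6.7e-09) in CHIP-/- hearts, with 0.26 (adjusted p = 0.082) in wild-type hearts.

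**Figure D5:**
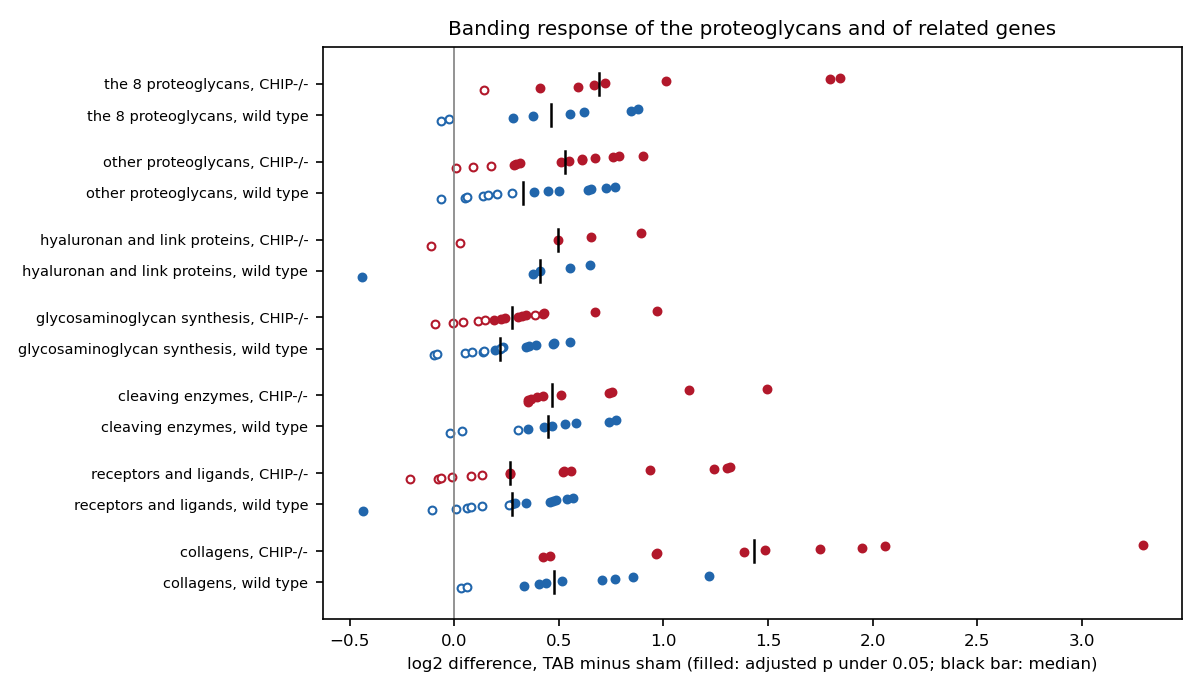
Log2 difference between TAB and sham (horizontal axis) for the 8 proteoglycans and 6 lists of related genes, with CHIP-/- hearts in red above wild-type hearts in blue; points are genes, filled where the adjusted p was below 0.05, and black bars are medians. The collagens in CHIP-/- hearts have the highest median, 1.44, and all 10 are filled.

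Cell type markers also changed after TAB, in unlike directions for different lists. Of 11 measured fibroblast markers, 8 rose in CHIP-/- hearts and 6 in wild-type hearts, and their list mean was -0.11 to -0.01 in CHIP-/- TAB, -0.99 to -0.64 in CHIP-/- sham, -0.53 to -0.16 in wild-type TAB and -0.88 to -0.65 in wild-type sham. The median difference of the fibroblast list was 0.57 in CHIP-/- hearts and 0.28 in wild-type hearts. Among its markers without a call in CHIP-/- hearts were Pdgfra, at 0.17 (limma adjusted p = 0.072), and Ddr2, at 0.12 (adjusted p = 0.19). Of 11 macrophage markers, 11 rose in CHIP-/- hearts and 8 in wild-type hearts, with list means of 0.52 to 0.73 in CHIP-/- TAB, -0.22 to -0.07 in CHIP-/- sham, 0.23 to 0.34 in wild-type TAB and -0.13 to 0.02 in wild-type sham. Of 10 markers of smooth muscle and pericytes, 7 rose in each genotype, with 2 falling in CHIP-/- hearts and 1 in wild-type hearts, and their list mean was 0.34 to 0.57 in CHIP-/- TAB, -0.16 to -0.13 in CHIP-/- sham, 0.22 to 0.49 in wild-type TAB and -0.09 to -0.01 in wild-type sham. Of 9 endothelial markers, 3 rose and 1 fell in CHIP-/- hearts and 6 rose and 1 fell in wild-type hearts. Of 9 valve, tendon and cartilage markers 4 were measured, of which 3 rose in each genotype and 1 fell in CHIP-/- hearts, with a list mean of -0.30 to -0.02 in CHIP-/- TAB, -1.12 to -0.88 in CHIP-/- sham, -0.86 to -0.20 in wild-type TAB and -1.04 to -0.59 in wild-type sham. The markers Tnmd, Chad, Acan, Hapln1 and Matn1 were not well above background on enough arrays. Of 7 epicardial markers 3 were measured, of which 2 rose in CHIP-/- hearts and 0 in wild-type hearts. Of 8 measured cardiomyocyte markers, 7 fell and 1 rose in CHIP-/- hearts, and 5 fell and 0 rose in wild-type hearts. The part of these cell types in the proteoglycan changes was not tested.

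The 5 genes most like the mean profile of the 8 over the 16 arrays were Sparc, Mfap4, Fstl1, Enpp1 and Col3a1, with Pearson r of 0.97 for each, a description that mostly follows the 4 groups. After the group means were taken away, the 5 most alike were Serinc3 (0.93), Itgb5 (0.88), Plekha2 (0.87), Abi3bp (0.86) and H2-Aa (0.86). The 16 points share 4 slides and their group means.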

How the data were processed

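The 16 arrays, 4 per group, were Agilent arrays of pattern 014868 quantified with Feature Extraction 9.1.3.1, per the file headers. Per the labels' protocols, 500 ng of heart or reference RNA was labelled after low-input amplification. The deposited scanner files give linear intensities (mean signal and median local background of each spot) and a log10 ratio of Feature Extraction's processed signals. The authors' deposited value matrix holds log2 ratios of 14322 probes. Of these, 14298 matched a probe of the scanner files, where its columns correlated at 0.99976 to 0.99999 with Feature Extraction's ratios after subtraction of each probe's median, and its column medians were -0.03 to 0.03. The rule that picked its probes was not found in these sources. CHIP-/- TAB files carry signals of 3 significant digits and 47 altered gene names, which were replaced by probe.

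Spot signals (the mean) were background-corrected with normexp (offset 50) and normalized within arrays by loess (control spots at weight 0) in limma 3.58.1 under R 4.3.3 with the data.table package, version 1.17.8. Spots marked as outliers (3 to 459 on an array) were dropped, and saturated ones were not. Spots of a probe were averaged, and the filter left 14684 of 41174 probes. A model with 1 mean per group was fitted to all of them (lmFit, eBayes with intensity trend), with p-values adjusted by Benjamini-Hochberg over all probes tested. The words rose, fell and differed are used where limma's adjusted p was below 0.05. The fit was tried on simulated data for the comparison of CHIP-/- TAB with CHIP-/- sham over 14684 probes. It recovered 84% of changes of 0.5 and 100% of changes of 1 on the log2 scale, with 6 false calls. The simulated noise was normal, independent between arrays and without a slide effect, and only a small share of probes was changed. In the data 44% of probes were called in this comparison, so these rates need not carry over. The example genes of each list were the 2 with the smallest adjusted p in CHIP-/- hearts and the 2 in the interaction; other genes named were chosen after their values were seen. Names were matched to RefSeq by accession for 22951 probes, by symbol for 6659 and by synonym for 3109; 8455 kept the file's name. The members and gene lists were chosen with earlier results of these data known. Same-numbered arrays of different groups did not deviate together (24 pairs, correlations -0.17 to 0.15, median -0.01), so replicate numbers do not pair the arrays. Alternatives changed the background correction or its offset, the normalization, the channel, the filter, the intensity trend and the probe choice, used the deposited ratios, or left out arrays; those on Y-linked transcripts, high Myl7 and the position on the slide were added after seeing the data.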

Additional observations from a re-analysis of the deposited data

Results flagged for a closer look

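Among 32 sets of 4 arrays (8 transcripts in 4 groups), 3 held 1 array far from its group by Dixon's test, where chance gives about 1 in 20. They were Prelp in CHIP-/- TAB replicate 4, at 0.96 against 0.71 on each of the other 3 arrays; Vcan in CHIP-/- TAB replicate 2, at -0.86 and not well above background there; and Vcan in wild-type sham replicate 2, at -0.75, the 1 array of that group on which it was well above background. Without CHIP-/- TAB replicate 2 the Vcan difference between CHIP-/- TAB and wild-type TAB was 0.12 (limma adjusted p = 0.62), against -0.01 with all arrays.

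The banding response differed between the genotypes for 4 transcripts, by a test of the interaction. The response in CHIP-/- hearts minus that in wild-type hearts was 1.00 for Aspn, 0.92 for Lum, 0.62 for Ogn and 0.64 for Bgn.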

How the results depend on the processing

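The main values came from normexp, loess and all arrays. Of 647 alternative values for changes that were called, 597 kept direction and call and 50 kept direction but lost the call. Of 583 for differences that were not called, 565 stayed so, 2 became calls and 16 changed sign. These counts are not independent checks, since many settings could not move a difference. Among them were those on the filter, probe choice and intensity trend, and those leaving out an array of a group outside the comparison. The deposited table nearly repeats Feature Extraction's ratios. The number of the 8 transcripts called was 7 after TAB in CHIP-/- hearts, 6 in wild-type hearts, 4 between the genotypes after TAB, 0 after sham and 4 in the interaction. Median centring gave 4 in CHIP-/- hearts, 5 in wild-type hearts (3 up, and Ogn at -0.39 and Prelp at -0.33 down) and 2 in the interaction, Feature Extraction's ratios and the authors' deposited table gave 2 each between the genotypes after TAB, and leaving out the 3 sham arrays with Y-linked transcripts, a setting chosen after seeing the data, gave 2 in the interaction. With single arrays left out the counts ranged from 7 to 7, 4 to 6, 2 to 4, 0 to 0 and 3 to 4 in the same order; the 2 came without wild-type TAB replicate 1 and without CHIP-/- TAB replicate 3, and the cause was not tested. The replicate block gave 7, 6, 4, 0 and 4, and so changed no count; leaving out the 3 sham arrays with high Myl7, also chosen after seeing the data, gave 4 in wild-type hearts. Among all probes, median centring called 49.7% in CHIP-/- hearts and 38.7% in wild-type hearts. Of these calls, 11.4% in CHIP-/- hearts and 7.88% in wild-type hearts were upward, against 48.4% and 48.8% with loess. Sign changes concerned only differences that were not called. With median centring these were Vcan between the genotypes after TAB (0.031), Prelp after TAB in CHIP-/- hearts (-0.18), Fmod after sham (0.019) and the Dcn interaction (-0.016). Vcan between the genotypes after TAB was 0.029 with no background correction, Prelp there was 0.076 with the heart channel alone, and Ogn in wild-type hearts was 0.014 without the high Myl7 arrays. With single arrays left out, values that crossed 0 ranged from -0.061 to 0.12 for Vcan and -0.13 to 0.059 for Prelp between the genotypes after TAB, from -0.11 to 0.00030 for Fmod after sham, from -0.0075 to 0.15 for the Dcn interaction, and from -0.066 to 0.048 for Ogn and -0.15 to 0.043 for Prelp in wild-type hearts. A slide block was not run, since each slide held 1 group. Detection was least complete for Fmod and Vcan, whose heart signals were well above background on 10 and 7 of 16 arrays. The SE of the banding difference in CHIP-/- hearts was largest for Lum, at 0.14, against 0.12 for Vcan and 0.10 for Fmod.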
